A study of Mus musculus with 36 samples.

Results

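The 10 genes described here carry carbon from threonine and serine into glycine, folate and cysteine: Tdh, Gcat, Phgdh, Psat1, Psph, Shmt1, Shmt2, Gldc, Mthfd2 and Cth. They were taken by name from a table of 25965 genes, each stands there on a line of its own, and all 10 passed the filter on low values that left 14612 genes tested. RNA-seq was performed on female Xmas mouse embryonic stem cells (mESCs), a C57/Bl6 system in which one X chromosome carries GFP and the other mCherry at the Hprt locus. Cells held in the naive state by 2i and LIF were weaned stepwise into serum medium without LIF (DME HiHi), and RNA was taken daily from day 0 to day 8. Every day has 4 libraries, 36 in all, from the lines X14 and X18, each with one library named double and one named single. The replicate numbers 1 to 4 follow the order X14 double, X14 single, X18 double, X18 single. What double and single stand for is not explained in the labels, which also do not say whether the days of one line and name are separate cultures, so p-values measure the spread between these libraries, which may in part be technical.

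Serine is made from a glycolytic intermediate in a short chain of enzymes, and serine hydroxymethyltransferases then pass one of its carbons to folate, leaving glycine. The folate-bound carbon feeds purine, thymidylate and methionine synthesis. Mouse embryonic stem cells are known for high Tdh and for drawing glycine and one-carbon units from threonine as well. The transcription factor ATF4 is known to activate genes of serine synthesis and mitochondrial folate metabolism when amino acids are short.

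Depth lay between 612740 and 2445826 reads in genes, and 3 reads corresponded to 1.04 to 3.90 reads per 1000000 (RPM). Levels are given as reads per kilobase of exon and per 1000000 reads (RPKM), so they can be set side by side between genes. The X14 libraries of day 0 went against their names. The median X-linked expression relative to autosomes was 1.34 lower on the log2 scale in double than in single there, while double was higher by 0.42 to 1.30 in X14 on days 1 to 8 and by 0.23 to 1.12 in X18 on all 9 days. An exchange of these 2 libraries would leave the day means as they are, and the calls against day 0 were repeated without them. The embryonic stem cell markers (Pou5f1, Nanog, Sox2, Zfp42, Esrrb and Klf4) were all present on day 0 and summed to 3537 to 4643 RPM. Their sums were 1348 to 1937 RPM by day 4, 883 to 1591 RPM by day 5 and 295 to 705 RPM by day 8. Visceral endoderm markers summed to at most 4.11 RPM in any library, with Ttr at 0 on all days. Fibroblast markers summed to 0 to 11.6 RPM on day 0 and 41.6 to 90.9 RPM on day 8, and neural markers to 94.6 to 156.5 and 58.3 to 93.3 RPM, with Dcx at 0 throughout. Between these days the neural sum went up and down, with means of 198 RPM on day 2, 89.3 on day 4 and 202 on day 6. From day 0 to day 8 the mean of Nes rose from 2.26 to 6.86 RPKM, while the other neural genes with reads fell. In bulk RNA, fewer cells of a type and less RNA per cell cannot be told apart, and the part of these cell type changes in the results was not tested.

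The promoters of Psat1 and Mthfd2 are shown because the former fell furthest among the genes of serine synthesis and the latter rose and then fell. RefSeq windows of GRCm38.p6 (the mm10 build) were found for 8 of the 10 genes, not for Tdh and Cth. The windows hold 250 bases before the start site and 50 after it, of which 30 are printed after it here. Psat1 has 2 windows, and the one with the motif matches is shown, a choice made after the matches were seen. Capitals mark CCAAT, the box bound by NF-Y, or ATTGG where it lies on the opposite strand. The Psat1 sequence is chr19:15925030-15925309 and the Mthfd2 sequence chr6:83317575-83317854, both read on the minus strand.
Psat1: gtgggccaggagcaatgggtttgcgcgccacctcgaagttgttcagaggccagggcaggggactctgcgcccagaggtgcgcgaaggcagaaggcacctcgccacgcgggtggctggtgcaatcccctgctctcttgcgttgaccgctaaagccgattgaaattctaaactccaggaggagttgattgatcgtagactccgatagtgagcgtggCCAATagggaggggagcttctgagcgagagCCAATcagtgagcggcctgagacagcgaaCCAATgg
Mthfd2: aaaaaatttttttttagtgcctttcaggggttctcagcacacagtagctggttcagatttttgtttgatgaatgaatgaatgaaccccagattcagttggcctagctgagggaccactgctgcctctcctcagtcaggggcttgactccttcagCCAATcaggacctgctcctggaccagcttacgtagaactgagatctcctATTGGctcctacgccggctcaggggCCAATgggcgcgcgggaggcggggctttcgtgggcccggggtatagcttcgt
Mthfd2 held 3 CCAAT matches, at positions -96, -47 and -22 from the start site (the first base of each match, with the middle one on the opposite strand). The Psat1 window held 3 as well, at -36, -6 and 24. CCAAT stood in a window of 6 genes (Gldc, Mthfd2, Phgdh, Psat1, Psph and Shmt1) and in 37.4% of 32851 RefSeq promoter windows searched the same way on both strands. CACGTG, the E-box, occurred in Gcat alone among the 8 genes searched and in 7.15% of windows. TGATGNAA, a form of the element that ATF4 binds with C/EBP partners, occurred in 0 of the 8 genes and in 3.97% of windows. These letters describe the windows only.

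The daily sampling asks how expression moves as cells leave the naive state. Summed over the 10 genes, day 0 had 3075 ± 326 RPM (SD, n = 4). Day 4 had 2616 ± 337 RPM, day 5 had 1490 ± 173 RPM and day 8 had 677 ± 195 RPM. The libraries of day 4 held 2279 to 3041 RPM and those of day 5 held 1317 to 1715, so these days did not overlap. The genes took different courses to this low level, which the plot of levels by library shows.

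**Figure D1:**
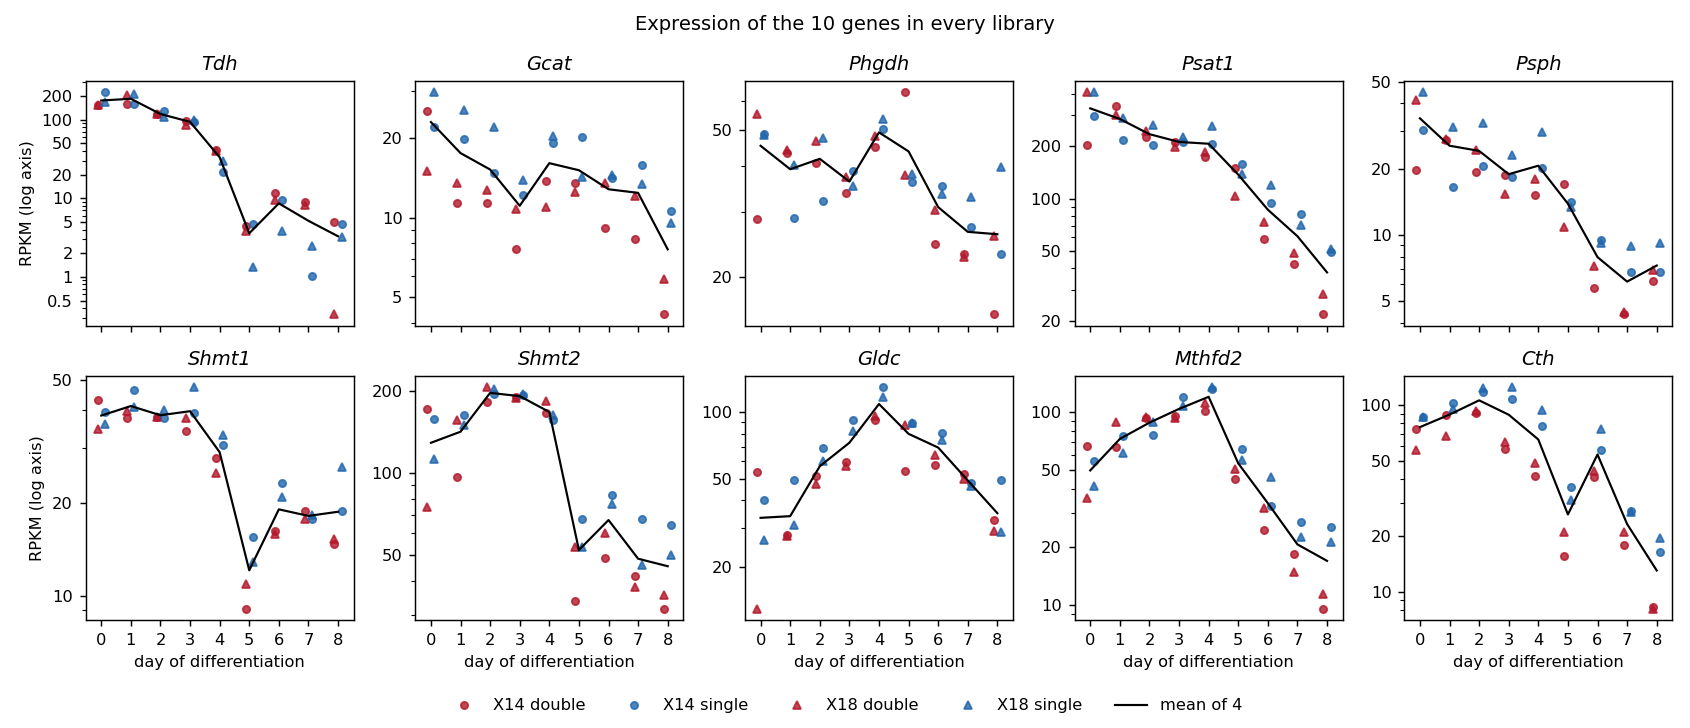
Expression in RPKM on a log axis against the day of differentiation, 1 panel per gene; points are single libraries (colour for double or single, shape for the line) and the black line is the mean of 4. Tdh dropped from a mean of 93.6 RPKM on day 3 to 3.59 on day 5, Mthfd2 and Gldc peaked on day 4, and Psat1 declined over the whole course.

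In the limma fit over all 36 libraries, 0 of the 10 genes were called against day 0 on days 1 and 2, where a call needs a Benjamini-Hochberg adjusted p under 0.05 and a 2-fold change. On those days 0.0684% and 2.96% of all genes tested were called. On day 3 there were 3 calls (8.89% of all genes), Gldc and Mthfd2 higher and Gcat lower. On day 4 there were 3 as well (18.6% of all genes), Gldc and Mthfd2 higher and Tdh lower. Day 5 had 6 lower genes and Gldc higher (26.8%), and day 6 had 4 lower genes and Gldc higher (33.4%). Day 7 had 7 lower genes (35.4%) and day 8 had 8 (35%). For lower calls alone the share of all genes was 11%, 11%, 11.6% and 11.1% on days 5 to 8. For days 4, 5 and 8 the median log2 fold change of the 10 genes was -0.34, -1.23 and -1.64, beside 0.12, 0.09 and 0.23 for all genes tested. All 10 genes passed the F test over the 9 days, as did 65.2% of all genes. These contrasts share the day 0 libraries. Leaving out replicate 3, or replicate 4, on all days left 0 calls on day 3. Without the X14 libraries of day 0 the calls on days 2 to 8 numbered 3, 4, 4, 6, 4, 5 and 8, and Psph was called lower on day 4 (-1.10, limma, adjusted p = 0.0044, beside -0.69 and adjusted p = 0.052 with them).

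**Figure D2:**
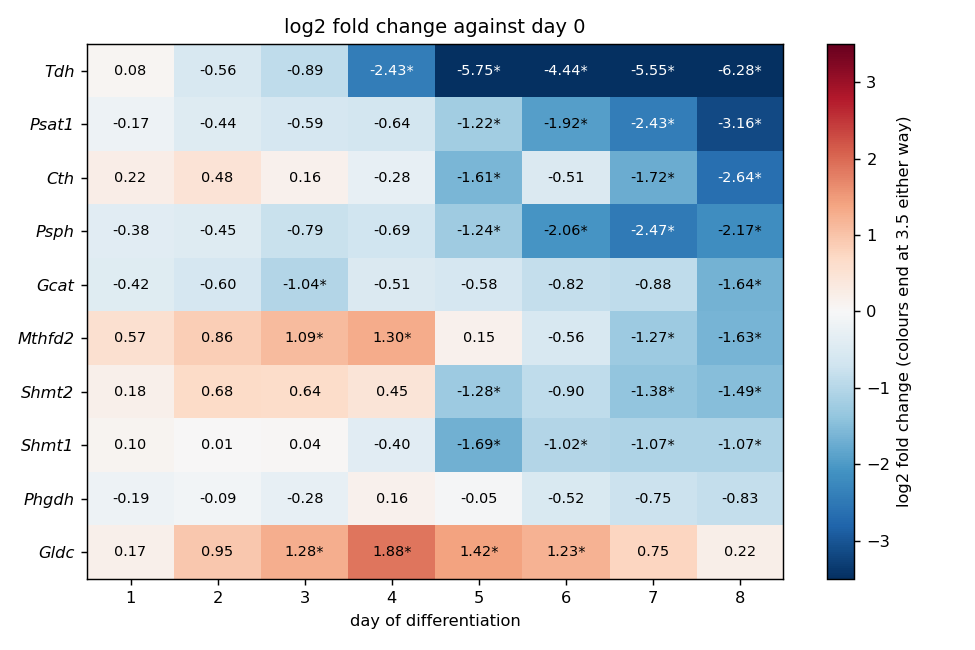
The log2 fold change of each gene (rows) on days 1 to 8 (columns) against day 0 in the limma fit, with red for higher and blue for lower and an asterisk for adjusted p under 0.05 with at least a 2-fold change. On day 8, 8 of 10 genes carry an asterisk and all 8 are lower, while the asterisks of Gldc stand on days 3 to 6.

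Tdh and Gcat encode the enzymes that split threonine: Tdh, the mitochondrial threonine dehydrogenase, makes 2-amino-3-ketobutyrate, and Gcat, its ligase, cleaves that into glycine and acetyl-CoA. Tdh was at 153, 223, 155 and 168 RPKM in replicates 1 to 4 on day 0, and at 97.4, 92.7, 86.6 and 97.9 RPKM on day 3. On day 4 it was at 41.1, 21.5, 40.1 and 30.01 RPKM. Every library of day 3 lay below those of day 0, and every library of day 4 below those of day 3. On day 5 Tdh stood at 4.47, 4.72, 3.82 and 1.33 RPKM, from 9 to 16 reads a library. On day 8 it stood at 4.96, 4.65, 0.333 and 3.18 RPKM, and the lowest of these, X18 double, rested on 1 read. The mean fell 53.3-fold from day 0 to day 8.

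In limma, Tdh fell by 2.43 ± 0.58 (SE) on the log2 scale from day 0 to day 4 (adjusted p = 0.0020). This fit takes the spread of a gene from all days, including days 5 to 8, when Tdh rested on 1 to 54 reads a library. With days 0 and 4 fitted alone, the same fall had an SE of 0.25 (limma, adjusted p = 9.1e-05). By day 5 Tdh fell by 5.75 ± 0.58 (adjusted p = 2.2e-09) in the fit of all days, the largest change among the 10 genes on that day. The difference from day 0 was -6.28 ± 0.58 on day 8 (limma, adjusted p = 1.1e-10), or -5.42 without replicate 3. Between day 4 and day 5 alone it fell by 3.32 (adjusted p = 0.00013). Its means on days 6 and 7, 8.61 and 5.16 RPKM, lay above that of day 5, but the rise from day 5 to day 6 by 1.30 did not pass in limma (adjusted p = 0.13). Stem cell markers moved over the same days, of which a pair is named after its values were seen. Nanog, a factor of the naive state, differed from day 0 by -4.20 on day 4 (limma, adjusted p = 1.8e-08), while Pou5f1, which also marks the primed state, differed by 0.01 (adjusted p = 0.98), and by -2.70 on day 8 (adjusted p = 1.5e-09). Tdh shares 66 exon bases with the antisense gene Gm17232, and whether counting used the strand is not stated.

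Gcat moved far less. It was at 25.1, 21.9, 14.9 and 29.7 RPKM on day 0, at 13.5, 20.1, 12.5 and 14.3 RPKM on day 5 and at 4.31, 10.6, 5.88 and 9.58 RPKM on day 8. Day 8 lay wholly below day 0, whereas day 5 overlapped it. In limma its day 5 difference was -0.58 ± 0.30 (adjusted p = 0.12) and its day 8 difference -1.64 ± 0.30 (adjusted p = 3.0e-05). The deposited Gcat line runs past the end of Gcat in GENCODE, and its exons share 363 bases with those of Galr3 on the same strand.

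The ratio of both genes within a library turned over by day 5. The log2 of Tdh over Gcat was 2.96 ± 0.47 (SD, n = 4) on day 0 and 3.11 ± 0.38 on day 3. It then dropped to 1.05 ± 0.81 on day 4 and -2.20 ± 0.84 on day 5. Every library of day 5 lay below 0, between -3.42 and -1.59. On days 6, 7 and 8 the means were -0.66 ± 0.95, -1.71 ± 1.85 and -1.68 ± 1.81. X14 double lay above 0 on these days (0.36, 0.11 and 0.20), while the other libraries lay below 0. Tdh rested on 1 to 54 reads a library there. The difference between day 5 and day 0 was -5.16 (exact permutation test with 4 libraries a day, two-sided, p = 0.0286, adjusted p = 0.0571 over 16 tests). A p of 0.0286 is the smallest these 70 permutations can give.

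**Figure D3:**
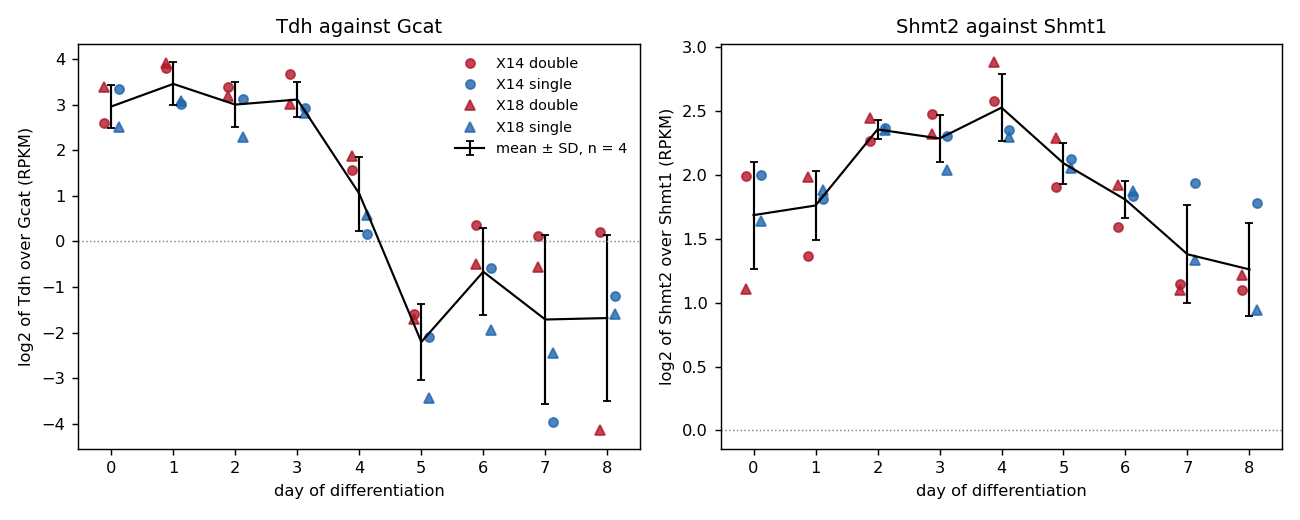
Log2 ratios of RPKM within each library against the day, on the left Tdh over Gcat and on the right Shmt2 over Shmt1; points are libraries, the black line is the mean and bars are the SD of 4. Tdh over Gcat crosses 0 between day 4 (mean 1.05) and day 5 (mean -2.20), while Shmt2 over Shmt1 goes from 1.69 on day 0 through 2.53 on day 4 to 1.26 on day 8.

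Phgdh, Psat1 and Psph encode the enzymes of serine synthesis in their order in the pathway: the dehydrogenase that takes 3-phosphoglycerate out of glycolysis, the aminotransferase and the phosphatase. They did not move as one. Psat1, the most abundant of the 10 genes on day 0, was at 203, 299, 407 and 408 RPKM on day 0, at 173, 206, 186 and 260 RPKM on day 4 and at 21.7, 49.7, 28.4 and 51.5 RPKM on day 8. Days 0 and 4 overlapped, and day 8 lay far below both. Its mean fell 8.70-fold from day 0 to day 8, and in limma its difference was -1.22 ± 0.25 by day 5 (adjusted p = 0.00028) and -3.16 ± 0.25 by day 8 (adjusted p = 5.6e-12). Without replicate 3 the day 5 difference was -0.976 and missed the 2-fold limit.

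Psph was at 19.8, 30.3, 41.5 and 44.9 RPKM on day 0 and at 6.21, 6.79, 6.95 and 9.20 RPKM on day 8, with no overlap. It fell by 2.17 ± 0.27 in limma (adjusted p = 4.2e-08). Its day means followed those of Psat1 with a Pearson r of 0.95 over 9 days, a description of means from the same libraries. In GENCODE, Psph shares 255 of 4132 exon bases (6.17%) with Cct6a, a chaperonin subunit on the opposite strand. The deposited Psph line holds 4010 exon bases, and how many of the shared ones it holds is not known. The mean of Cct6a was 717.6 RPKM on day 0 and 298 RPKM on day 8, beside 34.1 and 7.29 for Psph. Reads of both could not be told apart there without strand. The part of Cct6a in the level, the fall and the correlation of Psph was not tested.

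Phgdh had the narrowest fold range of day means among the 10 genes, from 26.1 RPKM on day 8 to 49.3 on day 4. It was at 28.7, 48.8, 55.4 and 48.4 RPKM on day 0 and at 15.9, 23.1, 25.9 and 39.7 RPKM on day 8, and these days overlapped. The day 8 difference was -0.83 ± 0.22 (limma, adjusted p = 0.0030), short of 2-fold, and -1.06 without the X14 libraries of day 0.

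Shmt1 and Shmt2 encode the cytosolic and the mitochondrial serine hydroxymethyltransferase, which interconvert serine and glycine. Shmt2 was at 172, 157, 74.9 and 112 RPKM on day 0 and at 182, 194, 207 and 204 RPKM on day 2. It was at 166, 157, 184 and 163 RPKM on day 4 and at 33.8, 67.5, 53.4 and 53.5 RPKM on day 5. Day 2 lay above day 0 in all 4 libraries, yet the difference of 0.68 was not called, and all day 5 libraries lay below those of day 4. The step from day 4 to day 5 was a fall by 1.73 ± 0.24 (limma, adjusted p = 5.7e-06). Against day 0, limma gave -1.28 for day 5 (adjusted p = 8.0e-05) and -1.49 for day 8 (adjusted p = 5.2e-06). Without the X14 libraries of day 0 the day 5 difference was -0.859, and without replicate 1 it was -0.926, both under 2-fold.

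Shmt1 stayed between day means of 38.3 and 41.1 RPKM up to day 3. On day 5 it was at 9.04, 15.5, 10.9 and 12.9 RPKM, the lowest day, and on day 8 at 14.7, 18.8, 15.2 and 26.0 RPKM. Day 5 lay below day 4, which held 24.9 to 33.1 RPKM, with a fall by 1.29 ± 0.17 in limma (adjusted p = 3.9e-06). The difference from day 0 was -1.69 for day 5 (adjusted p = 4.1e-09) and -1.07 for day 8 (adjusted p = 7.2e-06), the latter -0.959 without the X14 libraries of day 0 and -0.906 without replicate 1. Shmt1 shares 184 exon bases with Smcr8 on the opposite strand, whose day means lay between 3.09 and 7.80 RPKM. The log2 of Shmt2 over Shmt1 was 1.69 ± 0.42 on day 0 and 2.53 ± 0.26 on day 4 (SD, n = 4), a difference of 0.84 with the smallest p the exact permutation test allows (p = 0.0286, adjusted p = 0.0571). On day 8 the ratio was 1.26 ± 0.36 (exact permutation p = 0.171).

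Gldc and Mthfd2 rose before they fell. Gldc, the glycine decarboxylase of the mitochondrial glycine cleavage system, was at 53.7, 40.3, 12.9 and 26.4 RPKM on day 0 and at 91.9, 130.1, 96.2 and 118 RPKM on day 4. Day 4 lay above day 0 in every library, by 1.88 ± 0.28 in limma (adjusted p = 3.6e-06). Gldc was still 1.42 ± 0.28 higher on day 5 (adjusted p = 0.00013, a difference of 0.970 without replicate 3) and 1.23 higher on day 6. On day 8 it held 28.8 to 49.4 RPKM, within the range of day 0 (limma, 0.22 ± 0.28, adjusted p = 0.54). The upper end of that range came from both X14 libraries. Without them the difference was 2.55 on day 4, 2.09 on day 5 and 0.887 on day 8 (limma, adjusted p = 0.0075 for the last, under 2-fold). Gldc and Phgdh were the only genes of the 10 without a lower call against day 0 on any day.

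Mthfd2, the mitochondrial methylenetetrahydrofolate dehydrogenase, was at 66.6, 56.0, 35.9 and 41.7 RPKM on day 0, at 102, 132, 112 and 135 RPKM on day 4 and at 9.54, 25.5, 11.5 and 21.4 RPKM on day 8. The 3 days did not overlap. It was 1.30 ± 0.24 higher on day 4 in limma (adjusted p = 0.00012) and differed by -1.63 ± 0.24 on day 8 (adjusted p = 1.4e-06). Between days 4 and 5 alone it fell by 1.15 ± 0.24 (adjusted p = 0.0011). Against day 1 in place of day 0 the day 4 difference was 0.730, under 2-fold.

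Cth encodes cystathionine gamma-lyase, the last enzyme of transsulfuration, which makes cysteine. Its course held a low day, a partial return and a second decline. It was at 74.6, 85.7, 57.7 and 86.4 RPKM on day 0, at 15.5, 36.4, 21.0 and 31.0 RPKM on day 5, at 41.0, 57.3, 44.6 and 74.5 RPKM on day 6 and at 17.9, 27.0, 20.8 and 26.6 RPKM on day 7. Day 6 lay above both neighbouring days in all 4 libraries. In limma Cth fell by 1.33 ± 0.30 from day 4 to day 5 (adjusted p = 0.0019), rose by 1.10 ± 0.30 to day 6 (adjusted p = 0.011) and fell by 1.22 ± 0.30 to day 7 (adjusted p = 0.029). Its day 8 difference was -2.64 ± 0.30 (limma, adjusted p = 7.9e-09), at 8.26, 16.3, 8.08 and 19.5 RPKM. The rise to day 6 was lost without replicate 3, and the fall to day 7 was lost without any one of the 4 replicates.

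The step from day 4 to day 5 was called for 5 of the 10 genes, Tdh, Shmt2, Cth, Shmt1 and Mthfd2, all lower, beside 5.78% of all genes called lower in that step. The count was 5 with each replicate left out as well. Of the other steps between neighbouring days from day 2 on, those to days 6 and 7 held 1 call each, both Cth (9.72% and 0.89% of all genes), and those to days 2, 3, 4 and 8 held 0 (0.0342%, 0.185%, 5.03% and 0.438%). In the step to day 4 Tdh differed by -1.54 (limma, adjusted p = 0.13), though its libraries of days 3 and 4 did not overlap. The spread used there includes days 5 to 8, when Tdh rested on 1 to 54 reads a library. The day 5 libraries included the shallowest of the series, X14 double with 612740 reads in genes, and the deepest, X18 single with 2445826.

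Genes whose 9 day means ran most like those of Tdh and Mthfd2 were sought among 9393 genes that averaged 10 RPM or more. Closest to Tdh were Dennd2c (Pearson r = 0.991 over 9 days), Rpa1 (0.989), a subunit of the single-strand DNA binding complex, and Nme6 (0.988). Dennd2c went from 18.01 RPKM on day 0 to 3.64 on day 5, Rpa1 from 75.6 to 41.0 and Nme6 from 17.8 to 10.2. These falls were far smaller than that of Tdh, as Pearson r takes no account of the size of a change. Closest to Mthfd2 were Chac1 (0.991), a glutathione-degrading enzyme induced by ATF4, Srm (0.987), the spermidine synthase, and Rasgrp2 (0.986). Chac1 was at a mean of 13.6 RPKM on day 0, 42.6 on day 4 and 1.73 on day 8. With so many candidates and 9 points, high values are found for many genes, and these are descriptions of shared libraries.

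Other genes of the pathway were counted by list, in the same limma fit with adjusted p under 0.05 and a 2-fold change. Over all genes tested, the same rule called 12.2% higher and 6.4% lower on day 4, 15.8% and 11% on day 5, and 23.9% and 11.1% on day 8. On day 4, 4 of 6 amino acid transporters were higher and 0 lower, led by Slc38a2 (2.19, adjusted p = 4.4e-06), a neutral amino acid carrier, and Slc6a9 (1.70, adjusted p = 0.0034), the glycine transporter. Of ATF4 and 7 of its targets, 3 were higher and 1 lower on day 4: Slc7a11, the cystine carrier, by 3.74 (adjusted p = 1.2e-06, from a mean of 0.0601 to 1.03 RPKM), Chac1 by 1.62 (adjusted p = 0.026), and Asns, the asparagine synthetase, at -1.59 (adjusted p = 1.6e-06). On day 8 the ATF4 list had 0 higher and 4 lower, with Chac1 at -3.58 (adjusted p = 2.2e-06) and Asns at -2.39 (adjusted p = 1.4e-10). The list's median was 0.82 on day 4 and -0.95 on day 8. Atf4 mRNA itself, named after its value was seen, differed by 0.39 on day 4 (adjusted p = 0.076) and was among the lower calls of day 8 (-1.40, adjusted p = 1.8e-08).

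In the folate cycle list, 2 of 15 genes tested were higher and 2 lower on day 4, 0 higher and 7 lower on day 5, and 1 higher and 5 lower on day 8. The lower genes of day 8 were led by Aldh1l2 (-2.50, adjusted p = 0.00055) and Aldh1l1 (-2.09, adjusted p = 0.00010), the formyltetrahydrofolate dehydrogenases, and the higher one was Slc19a1 (1.18, adjusted p = 0.0047), the reduced folate carrier. Aldh1l2 was low throughout, with a mean of 0.989 RPKM on day 0. Among 4 tested genes of glycine cleavage and serine use, 2 were lower on day 8, Amt (-2.12, adjusted p = 2.2e-08) and Gcsh (-1.94, adjusted p = 4.6e-06). Both belong to the same glycine cleavage system as Gldc, and Amt was already lower on day 4 (-1.44, adjusted p = 5.0e-05), when Gldc was higher. Of 8 genes of the methionine cycle, Mat2a (-1.13, adjusted p = 0.00023) and Mat2b (-1.09, adjusted p = 0.00019), which form the S-adenosylmethionine synthetase, were lower on day 8. Mat1a was called higher, listed at 0 on day 0 and at a mean of 0.423 RPKM on day 8. In purine synthesis, which takes up one-carbon units, 0 of 6 genes were called on day 4 and 1 on day 8, Ppat (-1.14, adjusted p = 0.00046).

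**Figure D4:**
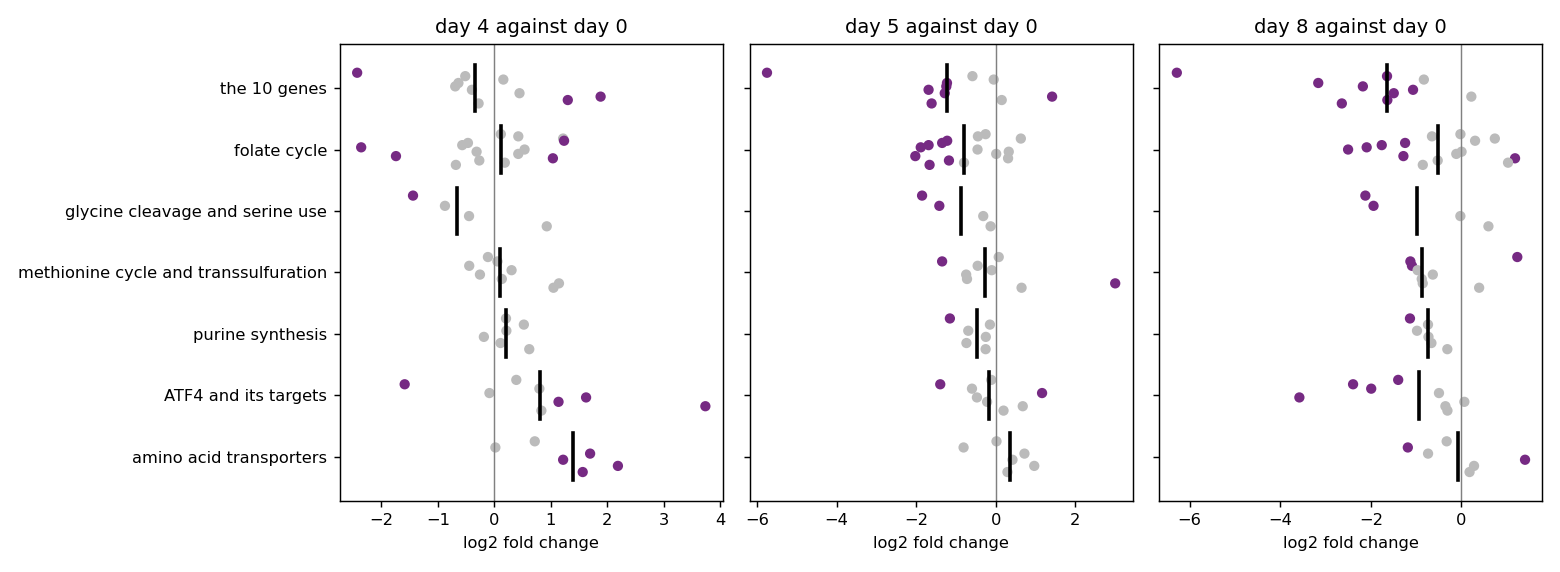
Log2 fold change against day 0 on days 4, 5 and 8 for the 10 genes and 6 lists of related genes (rows); each point is a gene, purple where limma called it and grey otherwise, and the black bar is the median of the list. On day 4 the median of the amino acid transporters was 1.39, and on day 8 that of the 10 genes was -1.64.

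The second comparison set libraries named double against those named single over days 1 to 8, with day and line in the limma model. Adjusted p alone called 8 of the 10 genes, all lower in double, beside 22.6% of all genes in either direction and 12.8% lower in double. None of the 10 reached 2-fold, beside 4.54% of all genes. The median difference was -0.33 for the 10 genes and -0.04 for all genes tested. The 16 libraries of each name come from 2 combinations of line and name, so these p-values treat libraries of one such series as separate samples.

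Cth and Gcat differed most. Single was above double in 16 of 16 pairs of the same line and day for both. Cth was at 88.7 RPKM in double and 103 in single on day 1 of X14, 58.3 and 108 on day 3, and 8.26 and 16.3 on day 8. In X18 the same days gave 68.3 and 95.3, 63.4 and 125, and 8.08 and 19.5 RPKM. The limma estimate for Cth was -0.71 ± 0.08 (SE, adjusted p = 6.4e-08), -0.71 in X14 and -0.72 in X18. For Gcat it was -0.62 ± 0.09 (limma, adjusted p = 1.1e-05), with pairs between -1.30 and -0.11. The other 6 genes lay between -0.28 and -0.35: Psat1 at -0.35 (limma, adjusted p = 0.012), Mthfd2 at -0.35 (adjusted p = 0.0098), Gldc at -0.34 (adjusted p = 0.0021), Shmt2 at -0.33 (adjusted p = 0.0092), Psph at -0.31 (adjusted p = 0.032) and Shmt1 at -0.28 (adjusted p = 0.0037). Single was the higher library in 12 to 14 of 16 pairs for these. By line, Psph differed by -0.12 in X14 and -0.50 in X18, Shmt2 by -0.54 and -0.11, Gldc by -0.50 and -0.18, Mthfd2 by -0.44 and -0.26, Psat1 by -0.29 and -0.40 and Shmt1 by -0.28 and -0.29. With replicate 1, 2, 3 or 4 left out, the 8 genes became 4, 3, 5 and 5, and Cth and Gcat passed each time. Without a replicate its line holds only 1 name, so the estimate then comes from the other line alone. Leaving out replicate 1 or 2 repeats the estimates of X18, and leaving out 3 or 4 repeats those of X14.

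Phgdh differed by -0.08 ± 0.10 (limma, adjusted p = 0.65), with single higher in 11 of 16 pairs. Tdh differed by 0.37 ± 0.29 (limma, adjusted p = 0.39), with double higher in 10 of 16 pairs, and its pairs spread from -3.26 to 3.15. Both extremes came from days 7 and 8, where its libraries held 1 to 47 reads. The stem cell markers of days 1 to 8 summed to a median of 1678 RPM in double and 1313 in single, and the neural markers to 122 and 144 RPM. On days 5 to 8 alone the medians were 908 and 864 RPM for stem cell markers and 84.5 and 171.5 RPM for neural markers. Gene by gene over days 1 to 8, adjusted p alone called 3 of 6 stem cell markers higher in double and 0 lower, with a list median of 0.44. Of 5 neural markers tested, 0 were higher and 1 was lower. Over all genes, 1426 of 14612 were higher in double and 1872 lower. Their part in the difference was not tested.

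**Figure D5:**
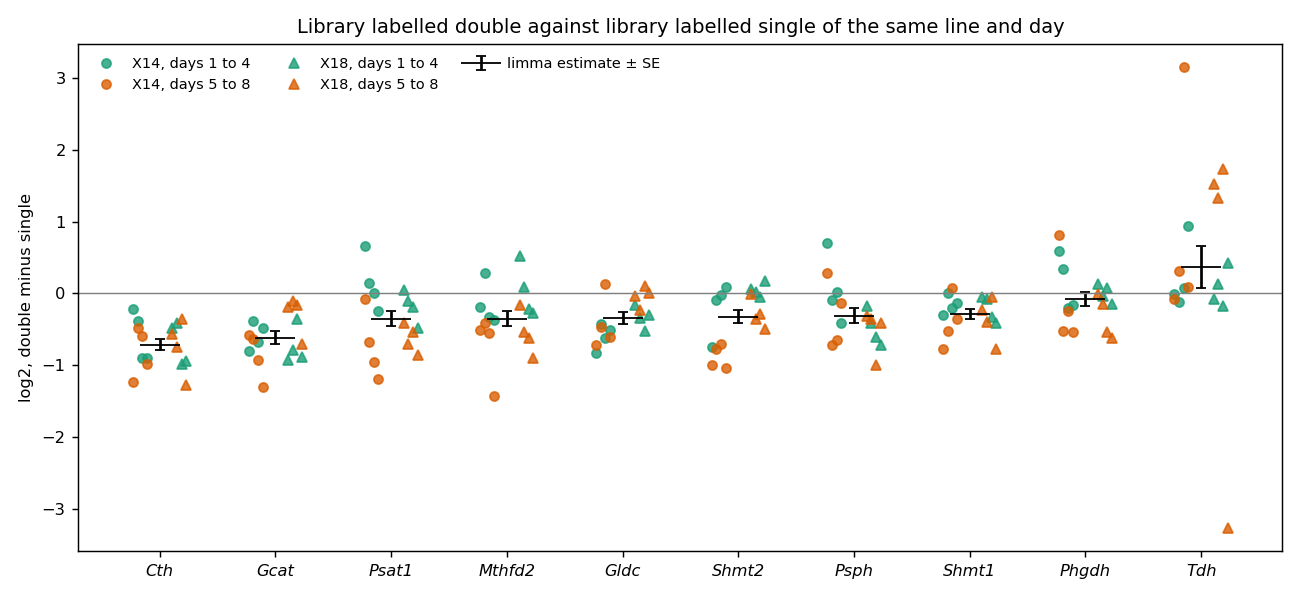
Log2 difference between the library named double and the one named single of the same line and day, for days 1 to 8; points are pairs, with shape for the line and colour for days 1 to 4 or 5 to 8, and black bars are limma estimates with their SE. All 16 points of Cth and of Gcat lie below 0, while those of Tdh lie on both sides.

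The difference between the names was larger on the late days for some genes. The change from days 1 to 4 to days 5 to 8 passed for 3 of the 10 by adjusted p alone, beside 5.91% of all genes. Psat1 went from a mean pair difference of -0.02 to -0.68 (limma, -0.65 ± 0.16, adjusted p = 0.015), Mthfd2 from -0.06 to -0.64 (-0.58 ± 0.17, adjusted p = 0.036) and Shmt2 from -0.07 to -0.58 (-0.51 ± 0.16, adjusted p = 0.050). On days 5 to 8 single was higher in 8 of 8 pairs for each of these, against 4 or 5 of 8 on days 1 to 4. With each replicate left out in turn, Psat1 kept its place in 2 of 4 fits, Shmt2 in 1 and Mthfd2 in 0. With replicate 2 or 3 left out 0 of the 10 passed. In limma's test of whether the double to single difference itself differs between the lines, 0 of the 10 and 0% of all genes passed, with 919 of 14612 genes at an unadjusted p under 0.05.

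Of the related lists, 5 of 6 purine synthesis genes were lower in double by adjusted p alone, none by 2-fold, with a list median of -0.33. In the methionine and transsulfuration list 3 of 8 were lower, and Gnmt, glycine N-methyltransferase, was the one gene of the lists called with a 2-fold difference (-1.08, limma, adjusted p = 0.0057). Cbs, which makes the substrate of Cth, differed by -0.86 (adjusted p = 2.4e-06) and is named after its value was seen, as the neighbour of Cth in the pathway. Over all genes tested, adjusted p alone called 1426 of 14612 higher in double and 1872 lower (12.8%). In the folate list 2 of 15 genes were higher and 2 lower, and in the ATF4 list 1 of 8 was higher and 4 lower. Of the amino acid transporters 2 of 6 were lower, and of glycine cleavage and serine use 1 of 4 was higher.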

How the data were processed

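The libraries were sequenced as 75 bp single-end reads. Per the study's methods and the submitters' processing notes, trim_galore, then tophat or hisat2 on mm10 (TopHat2 2.0.12 in the notes), and SeqMonk for quantification were used. Annotation version and strand of counting are not given in the sources used here. The values deposited by the authors are log2. Their table is named log CPM, but its lowest values scale with exon length, so the unit is log2 RPKM, with genes without reads written as 0.9 read. With this, whole reads were recovered for 100% of genes (within 0.02 read), and gave depth and RPM. Depths of 612740 to 2445826 reads limit precision by counting error, which is all that read floors cover.

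Genes with at least 1 RPM in at least 4 of 36 libraries were tested with limma 3.58.1 (eBayes with trend, two-sided) in R 4.3.3. The model of the deposited log2 values held day alone, or day and line for names on days 1 to 8 (32 libraries). Ratios used exact permutation in scipy 1.17.1. The limma contrast of day 8 with day 0 was also run on simulated reads drawn independently for each library. That simulation covered neither the comparison of names nor the ratios. Members and lists were chosen with earlier results of these data known. Every member is named, and from each list at most 2 called genes a direction. Same-numbered libraries share line and name: correlations of their deviations from the day means ran from -0.25 to 0.52 on days 1 to 8, and from -0.58 to 0.40 with day 0. Alternatives covered scaling, pseudocount, filter, baseline, replicate block, voom on recovered reads, lines, spans of days and left-out libraries. 0 value columns were left unused.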

Additional observations from a re-analysis of the deposited data

Results flagged for a closer look

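Among the 90 sets of 4 libraries (10 genes on 9 days) tested with Dixon's criterion, 7 held a library far from the others, and chance alone gives about 1 in 20. In these, 4 of 7 were X14 double. On day 5 the X14 double library, the shallowest of the series with 612740 reads in genes, held Phgdh at 63.3 RPKM beside 36.1 to 38.0 in the others and Gldc at 54.0 RPKM beside 87.2 to 89.3. On day 6 X14 double held Gcat at 9.10 RPKM beside 13.5 to 14.5. On day 1 X14 double held Shmt2 at 96.9 RPKM beside 150.6 to 162.7. Tdh was at 1.33 RPKM in X18 single on day 5 beside 3.82 to 4.72, and at 0.333 RPKM (1 read) in X18 double on day 8 beside 3.18 to 4.96. Shmt1 was at 39.9 RPKM in X18 single on day 2 beside 37.6 to 38.0, a narrow range.

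The difference between double and single changed from the early to the late days by -0.65 for Psat1, -0.58 for Mthfd2 and -0.51 for Shmt2 on the log2 scale. Each was past an adjusted p of 0.05 in limma's test of the change itself, Shmt2 narrowly (0.0498). With each replicate left out in turn, Psat1 stayed past it in 2 of 4 fits, Shmt2 in 1 and Mthfd2 in 0.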

How the results depend on the processing

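Called members against day 0 moved by over 1.5 times on 2 days. On day 2 the 0 calls became 2 with no minimum fold, 3 without the X14 libraries of day 0, and 0 to 1 with a replicate left out. On day 3 the 3 calls became 1 against day 1, 1 with only both days fitted, and 0 to 3 with a replicate left out. With a replicate left out, calls in the step to day 6 were 0 to 1, and in the step to day 7 0 throughout. For double against single, the 8 members became 3 on days 1 to 4 alone, 5 on days 5 to 8 alone, 4 in either line alone and 3 to 5 with a replicate left out, where fewer libraries were tested. The 3 late-minus-early calls became 0 to 2 there. With a replicate left out its line holds only 1 name, so those name differences repeat the estimates of the other line. Cth and Gcat stayed past adjusted p under 0.05 in all 18 alternatives run on the name difference, these repeats included.

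Signs turned in some values, never in a call. For Phgdh this held on day 4 (-0.00307 to 0.28 with a replicate left out, -0.075 without X14 day 0) and on day 5 (0.14 against day 1, -0.45 to 0.12 with a replicate left out). It also held for Phgdh between names (0.074 on days 1 to 4, 0.00928 in X14 alone, -0.16 to 0.00928 with a replicate left out). The sign turned for Mthfd2 on day 5 (-0.42 against day 1) and for Gldc on day 8 (-0.059 with 75th percentile scaling, -0.099 to 0.53 with a replicate left out).  The cause was not tested.

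Where genes had to average 10 RPM, 9403 genes were tested in place of 14612, so counts there are of fewer genes. Counts over all genes then moved from 2720 to 1728 on day 4 and from 5114 to 3222 on day 8. With 14612 tested, the day 4 count moved to 4355 without X14 day 0 and 1656 or 1808 without replicate 3 or 4. For names, 663 of 14612 became 437 with day 0, 1138 on days 1 to 4, 408 in X18 and 439 on log2(RPM + 1). The 663 became 319 of 9403 for genes averaging 10 RPM, 3298 with no minimum fold and 384 without replicate 2. The replicate block, which pairs same-numbered libraries, changed no count of called members (3 on day 4, 7 on day 5, 8 on day 8). Late Tdh rested on 1 to 54 reads a library, which limits its fold there.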
